A study of Mus musculus and Homo sapiens with 10 samples.

Results

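The small structural RNA repeats of the mouse genome were examined. They are the subfamilies that the repeat annotation puts in the classes rRNA, snRNA, srpRNA, scRNA, tRNA and RNA. Membership was set by class alone, but the classes were chosen with earlier results of these data known. They numbered 83 of the 1196 subfamilies in the mouse repeat table: 3 rRNA, 12 snRNA, 1 srpRNA, 6 scRNA, 60 tRNA and 1 RNA subfamily, with 18796 annotated copies in all. RNA-seq was done on E14, an established line of mESCs (mouse embryonic stem cells), kept in 2i media, with 4 untreated control libraries and 4 libraries of cells given vitC at 100 µg/ml for 24 h. Each control library shares its replicate number and the code in its label with 1 vitC library, so that the libraries were taken as 4 pairs. The codes of replicates 3 and 4 hold the same number, 35, whereas replicates 1 and 2 carry 10 and 11. The libraries were therefore also compared as 2 sets, called culture sets here. The labels do not say what the numbers stand for. Both sets come from 1 cell line, the mESC samples are labelled as total RNA and according to the methods were depleted of rRNA, and the only agent that differs is vitC. The human comparison rests on H9 cells, an established primed hESC line, with 1 control and 1 vitC library, labelled as polyA RNA. The methods describe the rRNA depletion without setting the human libraries apart.

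These repeats are annotated by their likeness to short noncoding RNAs, so each subfamily pools the working genes with the many dispersed copies and pseudogenes that retrotransposition left behind. The RNAs themselves are among the most abundant in any cell. rRNA forms the ribosome, 7SL is the scaffold of the signal recognition particle that brings ribosomes to the endoplasmic reticulum, U1, U2, U4, U5 and U6 build the spliceosome, and U3, U8, U13, U14 and U17 are nucleolar RNAs used in making rRNA. 7SK holds the elongation factor P-TEFb inactive, the Y RNAs HY1 and HY3 bind the Ro protein, and BC1 and 4.5S RNA are rodent RNAs made by RNA polymerase III. Most of them lack the poly(A) tail of mRNAs.

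The sequences of some of the genes behind these names are shown because the members the results turn on are annotated in many copies. The sequences were taken from the GENCODE transcripts of GRCm38, and for BC1 from the RefSeq promoter table of GRCm38.p6. Repeat copies were not matched to genes by position, and whether the copies decide how many reads can be placed was not tested. The first 120 bases are given of Rn7sk, the 7SK gene of 331 bases (chr9:78175514-78175633, minus strand). There the capitals mark each GATC, a motif found in the 5′ hairpin that HEXIM1 binds, whether or not the copy lies in that hairpin. In Rnu3b1, a U3 gene (chr11:87443237-87443451, plus strand), the capitals mark TGATGA, which box C of the C/D class contains. In Bc1, of which the first 50 bases are given (chr7:144914470-144914519, plus strand), the capitals mark GCTCAGTGG, a part of the tRNA-like internal promoter.
Rn7sk: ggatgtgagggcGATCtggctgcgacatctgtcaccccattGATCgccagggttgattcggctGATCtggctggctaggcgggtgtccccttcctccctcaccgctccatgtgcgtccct
Rnu3b1: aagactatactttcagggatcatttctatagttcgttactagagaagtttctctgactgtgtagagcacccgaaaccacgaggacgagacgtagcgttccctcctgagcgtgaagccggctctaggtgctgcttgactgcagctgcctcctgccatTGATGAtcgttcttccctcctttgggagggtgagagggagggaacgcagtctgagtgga
Bc1: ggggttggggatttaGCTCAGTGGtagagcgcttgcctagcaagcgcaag

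The first bases of Rn7sk held GATC 3 times. On either strand, GATC was found in 60.6% of 566 annotated transcripts of the same biotype (misc_RNA), TGATGA in 27.1% of 1507 snoRNA transcripts, and GCTCAGTGG in 0.801% of 32851 promoter windows of 300 bases. The 4 genes Rnu3b1 to Rnu3b4 had 1 sequence over 215 bases, and likewise the 7SL genes Rn7s1 and Rn7s2 over 300 bases and the U1 genes Rnu1b1 and Rnu1b2 over 165 bases were identical. Reads from such copies have no unique place. The U17 genes Snora73a (chr4:132352775-132352979, minus strand) and Snora73b (chr4:132352322-132352526, minus strand) differed at 7 of 205 bases, shown in capitals.
Snora73a: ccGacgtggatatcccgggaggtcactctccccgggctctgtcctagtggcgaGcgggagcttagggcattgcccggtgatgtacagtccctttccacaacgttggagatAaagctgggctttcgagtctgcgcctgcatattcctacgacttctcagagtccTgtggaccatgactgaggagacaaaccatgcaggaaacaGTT
Snora73b: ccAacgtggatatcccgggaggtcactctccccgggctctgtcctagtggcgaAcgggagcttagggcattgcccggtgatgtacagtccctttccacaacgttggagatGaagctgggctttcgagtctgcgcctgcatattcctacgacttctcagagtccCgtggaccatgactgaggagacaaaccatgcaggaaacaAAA

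In the counts, uniquely mapped reads made up 0.552% of the expected counts of U3, 0.404% of U1, 0.524% of 7SLRNA and 1.64% of 7SK, against 10.4% of U17. The expected counts share reads with several places among the copies. The uniquely mapped share did not follow the number of copies. It was 60.8% for BC1_Mm (6758 copies), 81.2% for tRNA-Ala-GCY_ (2580 copies) and 63.6% for HY3 (15 copies), whose counts rest largely on reads that a single copy can claim, but 0.794% for U2 (921 copies). For U1, U2, U3, U5 and tRNA-His-CAY_, 5 of the 24 members with a mean of at least 50 counts, the summed expected counts were over 1.1 times the reads with any alignment, as for 12 of the 611 subfamilies at that level. The excess varied between libraries. In U3 the ratio ran from 1.00 to 1.70, in U1 from 1.12 to 1.52, and for 7SK from 1.00 to 1.17, so the reads themselves were tested as well.

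Subfamily counts ranged from 2321035 to 5124928 over the 8 mESC libraries, and aligned fragments from 4720998 to 9333042. Control replicate 4 was the deepest by both measures. All 9 naive pluripotency markers lay between 10.06 and 13.54 on the deposited log2-like scale in every library, above the 11 markers of other cell types (trophoblast, endoderm, mesoderm, neural and fibroblast), which lay between 6.13, the lowest value of the table, and 7.80. Of these 11, 6 were at that lowest value in at least 1 library, and Elf5 was at it in all 8. In bulk RNA, fewer cells of a type and less RNA per cell cannot be told apart.

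The 6 classes together took 70.7%, 60.0%, 72.7% and 78.7% of the subfamily counts in control replicates 1 to 4, and 59.0%, 56.7%, 73.4% and 76.5% in the vitC replicates. Structural RNA was therefore the larger part of what the repeat table counted in every library. After the rRNA depletion, the rRNA class made up 42.0% to 63.1% of the subfamily counts, and the other 5 classes 10.4% to 19.2%. Within these, srpRNA held 6.25% to 9.86%, snRNA 2.52% to 6.95%, and RNA, which is 7SK alone, 1.47% to 2.38%. The share was far smaller for scRNA, 0.0526% to 0.106%, and for tRNA, 0.0613% to 0.119%, although these classes hold most of the 83 subfamilies. Shares of counts are not corrected for the length of the RNAs. Among uniquely mapped counts the 5 classes outside rRNA fell to between 0.612% and 2.03%, while rRNA still held 33.5% to 61.4%.

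**Figure D1:**
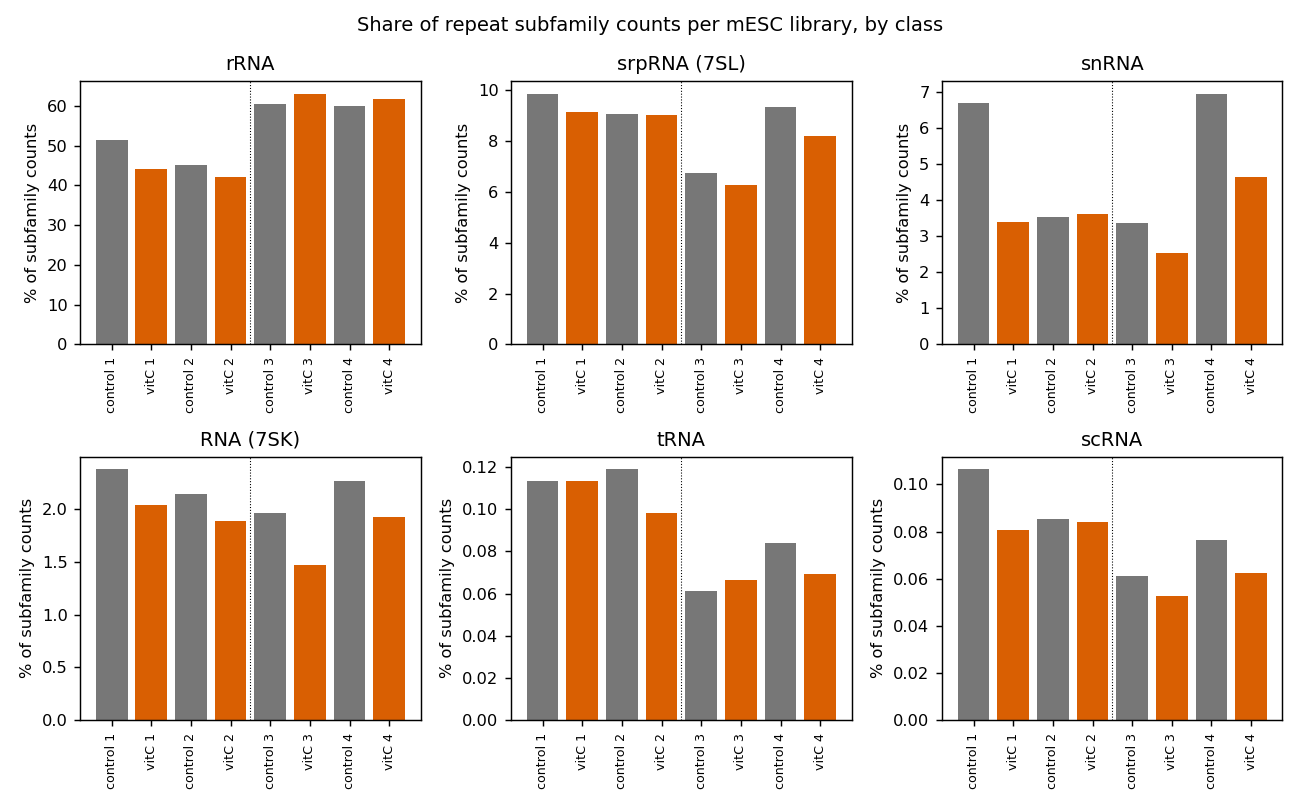
Percentage of the repeat subfamily counts that fell in each of the 6 classes (y axis of each panel, starting at 0) in the 8 mESC libraries, with each control (grey) beside the vitC library (orange) of the same replicate number and a dotted line between replicates 1 and 2 and replicates 3 and 4. rRNA lies between 42.0% and 63.1%, with the 4 highest values to the right of the line, and the RNA class (7SK) is lower with vitC in each of the 4 pairs.

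Of the 83 members, 42 had enough counts to be tested among 902 subfamilies (3 rRNA, 10 snRNA, 1 srpRNA, 4 scRNA, 23 tRNA and the RNA subfamily), and 4 were at 0 in all 8 libraries. Most tRNA subfamilies were barely counted: 55 of 60 had a mean under 50 counts. Mature tRNAs are short and heavily modified, and these counts cannot tell a tRNA from a tRNA-like repeat within a longer transcript.

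2 libraries stood apart. Control replicates 1 and 4 held the highest level of 38 of these 42 members (control replicate 4 of 31, control replicate 1 of 7), that is 90.5%, in CPM (counts relative to the library size) after TMM scaling. The same 2 libraries were highest for 23.2% of all tested subfamilies. What sets them apart was not tested.

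vitC was compared with control across all 902 subfamilies with edgeR's quasi-likelihood test on TMM-scaled counts, with p adjusted by Benjamini-Hochberg over all of them. None of the 42 members passed the threshold of 0.05, where 0.887% of all tested subfamilies did (8, all higher with vitC). At an unadjusted p under 0.05, 5 members were lower and 0 higher, against 25 lower and 77 higher of all 902 subfamilies. DESeq2 called 0 of 79 members, where it called 19 of 1170 subfamilies higher and 1 lower. The fitted log2 fold change was nevertheless below 0 for 40 of the 42 members, with a median of -0.58, whereas it was below 0 for 51.3% of all tested subfamilies, whose median was -0.01. The 2 members above 0 were 5S (0.03) and tRNA-Ala-GCG (0.08). By class, the log2 fold change was below 0 in all 10 snRNA members (median -0.71), in all 4 scRNA members (median -0.78) and in 22 of 23 tRNA members (median -0.56).

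The lower values were not evenly spread over the pairs. In pair 1, 40 of the 42 members were lower with vitC (median log2 ratio -1.10, on CPM with 0.5 added), in pair 2 it was 34 (-0.16), in pair 3 it was 24 (-0.14) and in pair 4 it was 38 (-0.49). Over all subfamilies, between 48.9% and 51.8% were lower in each pair. In 4 of 4 pairs 19 of the 42 members were lower and 0 were higher, against 13.0% and 13.2% of all tested subfamilies. In none of the 42 did the 4 control and the 4 vitC values separate without overlap, which 2.33% of all subfamilies did with vitC lower and 4.99% with vitC higher.

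Without control replicate 4 the median log2 fold change of the members was -0.25, with 38 of 42 below 0, and without control replicate 1 it was -0.50, with 39 of 42 below 0. No member reached an unadjusted p under 0.05 without either of them. Of all subfamilies, 16 of 911 were lower at that p without control replicate 4 and 23 of 907 without control replicate 1. Leaving out any of 3 other libraries widened the difference. Without vitC replicate 4 the median was -0.83, with 24 members lower at an unadjusted p under 0.05. Without control replicate 2 it was -0.77, with 16, and without control replicate 3 it was -0.74, with 15. Of all subfamilies, 53 of 910, 29 of 916 and 39 of 908 were lower at that p in these fits, in the same order. Without vitC replicate 1, 2 or 3 the difference narrowed, with medians of -0.46, -0.50 and -0.54. At that p 1, 2 and 3 members were lower there, against 16 of 917, 22 of 918 and 25 of 927 of all subfamilies. With replicates 1 and 2 only, the median was -0.71 and with replicates 3 and 4 only it was -0.35.

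**Figure D2:**
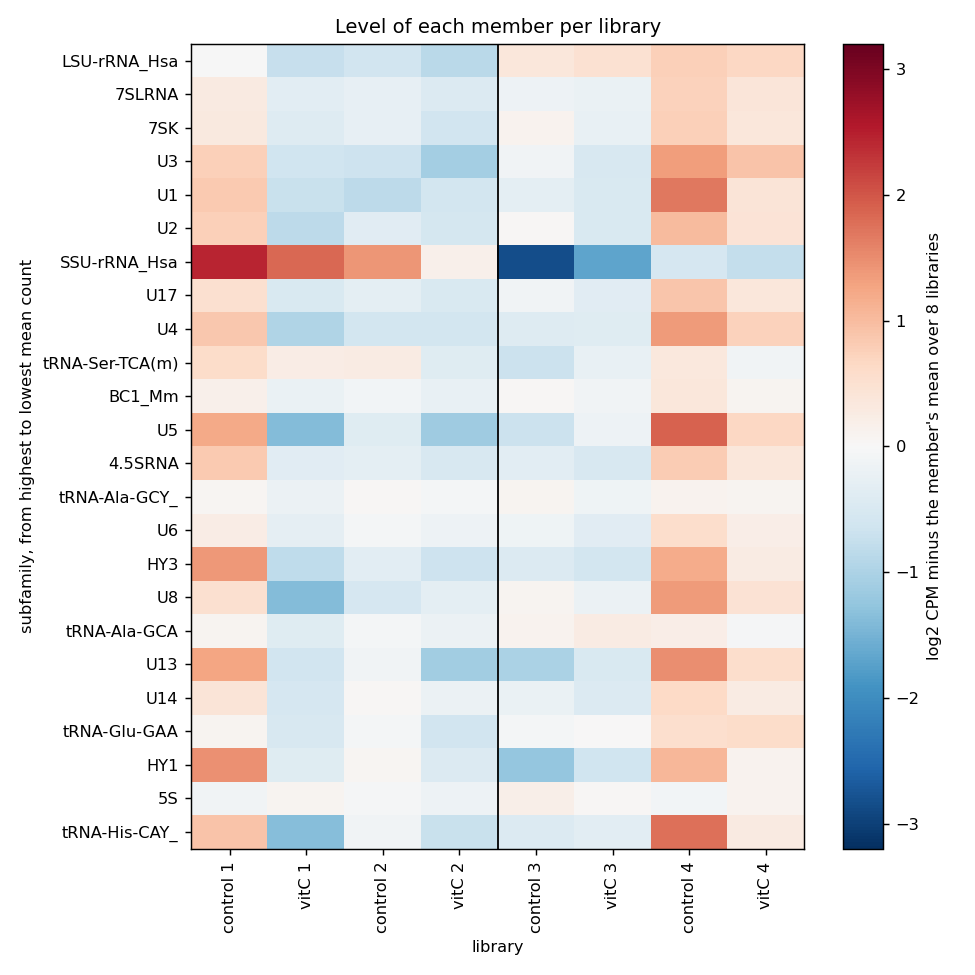
Level of the 24 members with a mean of at least 50 counts (rows) in the 8 mESC libraries (columns, paired by replicate number), as log2 CPM minus the member's own mean over the libraries, so red is above and blue below that mean. Control 1 and control 4 are red in most rows, SSU-rRNA_Hsa runs from red on the left of the line to blue on the right, and 5S hardly varies.

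With the replicate number as a block, which removes what both libraries of a pair share, 2 members passed the threshold, both lower with vitC. They were 2 of only 3 subfamilies called lower (0.333% of those tested), while 39 were called higher (4.32%), none of them a member. With the block and the aligned library size as the scale, 13 members were called, all lower: U1, U2, U3, U4, U5, U8, U13, U17, 4.5SRNA, HY1, HY3, tRNA-His-CAY_ and tRNA-Leu-TTA, but neither 7SK nor BC1_Mm. Of all 902 subfamilies, 13 were called lower and 61 higher on that scale. With the block on reads with any alignment, 5 were called, all lower: 7SK, BC1_Mm, U6, U17 and tRNA-Ser-TCG. Of all 913 subfamilies tested there, 10 were called lower and 58 higher. With the block on uniquely mapped counts, 0 of 33 were called, with 18 lower and 0 higher at an unadjusted p under 0.05. Of all 742 subfamilies tested there, 48 were lower and 46 higher at that p. CPM values are given on the TMM scale, on which the totals differ between libraries.

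7SK, the RNA that keeps P-TEFb inactive, was at 24640, 16518, 21597 and 33491 CPM in control replicates 1 to 4 and at 14897, 12925, 16901 and 25786 CPM in the vitC replicates. It was lower in each of the 4 pairs, but the controls spanned a wider range than the drop in any pair and the groups overlapped. The means were 24061 ± 7123 CPM in control and 17627 ± 5676 CPM in vitC-treated cells (SD, n = 4 each). Its log2 fold change was -0.45 (SE, the standard error, 0.26, edgeR adjusted p = 0.536) in the unpaired fit and -0.45 (SE 0.08, edgeR adjusted p = 0.0170) with the replicate block. The paired call was also made on the reads with any alignment (edgeR adjusted p = 0.0270) and not on uniquely mapped counts, where the log2 fold change was larger at -0.65 (edgeR adjusted p = 0.244), or with the aligned library size as the scale, where it was -0.34 (edgeR adjusted p = 0.0802). Leaving out 1 pair gave adjusted p of 0.00322 without pair 1, 0.0537 without pair 2, 0.0482 without pair 3 and 0.0963 without pair 4.

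BC1_Mm, named after the BC1 RNA of rodents, was at 485, 412, 448 and 560 CPM in control replicates 1 to 4 and at 373, 372, 402 and 463 CPM in the vitC replicates. All 4 pairs moved the same way, with log2 ratios of -0.38, -0.15, -0.16 and -0.28. The means were 476 ± 63.2 CPM and 402 ± 42.5 CPM (SD, n = 4 each), and the log2 fold change of -0.24 (SE 0.10) had an edgeR adjusted p of 0.411 unpaired. With the block it was -0.24 (SE 0.05, edgeR adjusted p = 0.0409). The call was lost on uniquely mapped counts (edgeR adjusted p = 0.244), with the aligned library size (edgeR adjusted p = 0.646) and on leaving out any 1 pair (edgeR adjusted p from 0.0692 to 0.194). With 6758 annotated copies, reads of BC1 itself and of BC1-like copies within other transcripts are pooled in this subfamily.

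7SLRNA, the RNA of the signal recognition particle, was at 102153, 69932, 74027 and 138170 CPM in control replicates 1 to 4 and at 66672, 61835, 71912 and 109769 CPM in the vitC replicates. It was lower in 4 of 4 pairs, in pair 3 by only 0.04 on the log2 scale (log2 ratio -0.04). The log2 fold change was -0.31 (SE 0.26, edgeR adjusted p = 0.732) and with the block -0.29 (edgeR adjusted p = 0.185).

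U3, the C/D RNA that base-pairs with pre-rRNA in the small subunit processome, was at 23034, 8515, 12405 and 34046 CPM in control replicates 1 to 4 and at 8713, 6301, 9390 and 25250 CPM in the vitC replicates. Control replicates 1 and 4 and vitC replicate 4 were the 3 highest libraries, and 4 of 4 pairs were lower with vitC. Its log2 fold change was -0.65 (SE 0.52, edgeR adjusted p = 0.708) and with the block -0.66 (SE 0.16, edgeR adjusted p = 0.0631), a call made without pair 1 (edgeR adjusted p = 0.00123). U1, which recognises the 5′ splice site, was at 19881, 6189, 8872 and 36019 CPM in control and 6774, 7423, 7864 and 14846 CPM in vitC-treated cells. It was lower in 3 of 4 pairs and higher in pair 2, with a log2 fold change of -0.94 (SE 0.51, edgeR adjusted p = 0.502).

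By size, the 3 largest falls among members with at least 50 counts and 4 of 4 pairs lower were those of HY3, U2 and U3, and no member at that level was higher in 4 of 4 pairs. HY3, a Y RNA bound by Ro, was at 189, 56.5, 52.8 and 163 CPM in control replicates 1 to 4 and 41.1, 45.4, 48.0 and 86.9 CPM in the vitC replicates, which is 100 to 602 counts per library. The log2 fold change was -1.07 (SE 0.45, edgeR adjusted p = 0.403), and -0.96 with the block (edgeR adjusted p = 0.126). U2, which pairs with the branch point, was at 19351, 8905, 11851 and 23007 CPM in control and 6382, 7821, 8192 and 15606 CPM in vitC-treated cells. The log2 fold change was -0.73 (SE 0.35, edgeR adjusted p = 0.454), and -0.71 with the block (edgeR adjusted p = 0.0944), with a call without pair 1 (edgeR adjusted p = 0.0216).

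The other members named for their counts were 4.5SRNA and a pair of tRNA subfamilies. 4.5SRNA was at 255 ± 111 CPM in control and 172 ± 56.7 CPM in vitC-treated cells (SD, n = 4 each), lower in 4 of 4 pairs (log2 fold change -0.57, SE 0.32, edgeR adjusted p = 0.516). tRNA-Ser-TCA(m) was at 506 ± 165 and 411 ± 79.9 CPM, lower in 3 of 4 pairs (log2 fold change -0.30, edgeR adjusted p = 0.720). This 1 subfamily held between 40.5% and 63.0% of the counts of the tRNA class. tRNA-Ala-GCY_ varied least, between 150.1 and 156 CPM in the controls and between 127 and 155 CPM with vitC, and had a log2 fold change of -0.14 (SE 0.07, edgeR adjusted p = 0.438). The 5S subfamily, named after the small rRNA that RNA polymerase III transcribes, was at 29.2 ± 2.88 and 29.8 ± 2.42 CPM (SD, n = 4 each). Its highest library exceeded its lowest by 1.27-fold, whereas for U5 that ratio was 9.74.

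**Figure D3:**
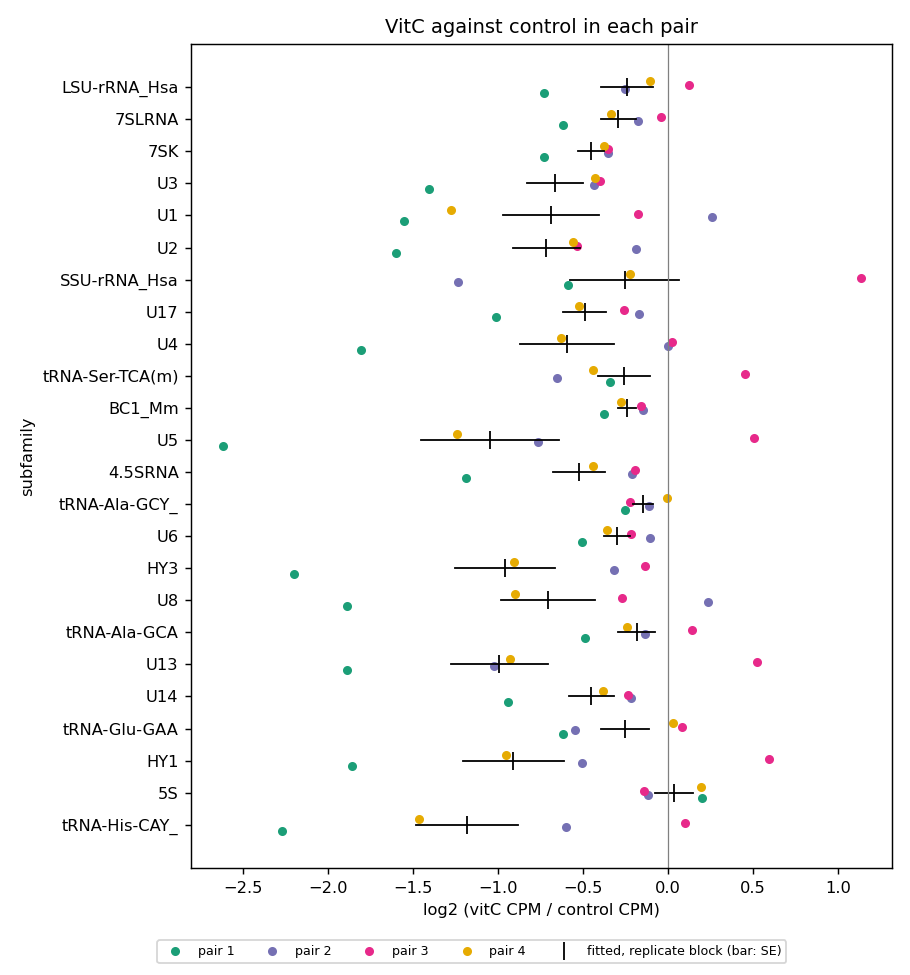
log2 ratio of vitC to control CPM in each of the 4 pairs (coloured points) for the 24 members with a mean of at least 50 counts, with the fitted log2 fold change of the fit with the replicate block (black tick, bar of 1 standard error). Pair 1 lies farthest to the left in most rows, the 4 points of 7SK and of BC1_Mm all lie below 0, and the points of 5S lie on both sides of it.

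The 2 large rRNA subfamilies behaved differently from each other. According to the methods the libraries were depleted of rRNA, so these counts are of rRNA left after depletion and not levels in the cells. LSU-rRNA_Hsa, likened to the RNA of the large ribosomal subunit, held between 96.3% and 99.9% of the counts of the rRNA class. It took 49.8%, 43.9%, 60.4% and 59.8% of the subfamily counts in control replicates 1 to 4 and 42.6%, 41.5%, 63.0% and 61.5% in the vitC replicates. SSU-rRNA_Hsa, likened to the RNA of the small subunit, was counted 56543, 26233, 1334 and 7849 times in control replicates 1 to 4 and 38768, 14912, 2118 and 4957 times in the vitC replicates. It made up between 0.540% and 1.71% of the subfamily counts in replicates 1 and 2 and between 0.0422% and 0.153% in replicates 3 and 4. The values of the culture sets did not overlap for either subfamily, and they lay in opposite orders.

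**Figure D4:**
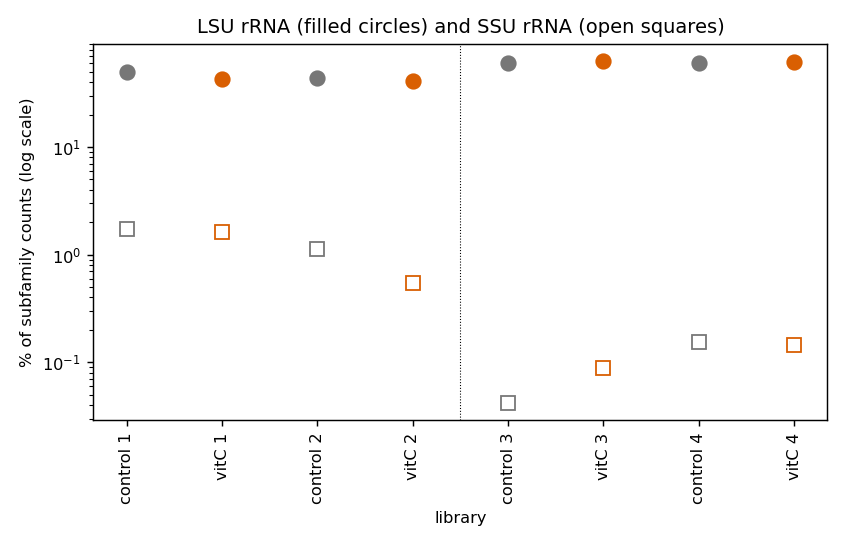
Percentage of the subfamily counts (log scale) in LSU-rRNA_Hsa (filled circles) and SSU-rRNA_Hsa (open squares) in the 8 mESC libraries, control in grey and vitC in orange, with a dotted line between replicates 1 and 2 and replicates 3 and 4. LSU lies between 41.5% and 63.0% throughout, whereas SSU lies at 0.540% or above on the left and at 0.153% or below on the right.

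Between the sets, LSU-rRNA_Hsa was higher in replicates 3 and 4 by 1.12 on the log2 scale (SE 0.21, edgeR adjusted p = 0.0134) and SSU-rRNA_Hsa was lower, with a log2 difference of -2.83 (SE 0.57, edgeR adjusted p = 0.0207). The 2 libraries of a pair are not independent, and each set holds only 2 pairs, which this fit does not take into account. With the libraries of each pair summed, neither was called, at 1.11 for LSU (SE 0.27, edgeR adjusted p = 0.132) and -2.86 for SSU (SE 0.66, edgeR adjusted p = 0.123). In the fit over single libraries they were the only 2 members called, 1 in each direction, where 0.998% of all tested subfamilies were called higher and 4.99% lower. Likewise they were the only 2 whose sets did not overlap, against 4.77% (higher) and 7.54% (lower) of all tested subfamilies. LSU was no longer called without vitC replicate 2 (log2 difference 1.04, edgeR adjusted p = 0.0600) and without vitC replicate 4 (1.03, edgeR adjusted p = 0.0556). SSU was no longer called without vitC replicate 1 (-2.57, edgeR adjusted p = 0.0871), without vitC replicate 3 (-2.75, edgeR adjusted p = 0.0777) and on uniquely mapped counts (-1.98, edgeR adjusted p = 0.167). Within the controls alone the 2 differences were 0.86 and -3.28 and within the vitC libraries alone 1.37 and -2.40, of which only LSU in the vitC libraries was called (edgeR adjusted p = 0.0163). For vitC against control neither was called, with log2 fold changes of -0.17 for LSU (edgeR adjusted p = 0.896) and -0.66 for SSU (edgeR adjusted p = 0.809). Both were above 0 under some settings, LSU at 0.08 without control replicate 4 and SSU at 0.28 without control replicate 1.

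Within a library the ratio of LSU to SSU counts needs no scaling between libraries, but it too describes rRNA left after depletion. It was 29.1, 38.9, 1433 and 391 in control replicates 1 to 4 and 26.4, 76.9, 712 and 424 in the vitC replicates. On the log2 scale it did not separate by treatment, at 7.31 ± 2.70 in control and 7.30 ± 2.20 in vitC-treated cells (SD, n = 4 each; exact permutation test over 70 labellings, two-sided, p = 0.971). By culture set it was 5.28 ± 0.70 in replicates 1 and 2 and 9.32 ± 0.86 in replicates 3 and 4 (SD, n = 4 libraries each), a difference of 4.04. That difference follows from the separation of both subfamilies by set, by which it was chosen, and it is given as a description with no test. It was 4.48 within the controls and 3.61 within the vitC libraries. What sets the culture sets apart was not tested.

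The other members with the smallest adjusted p for culture set did not pass the threshold in edgeR, while DESeq2 called 7SK as well (log2 difference 0.52, DESeq2 adjusted p = 0.0391). On the side higher in replicates 3 and 4 these were tRNA-Glu-GAA (log2 difference 0.57, edgeR adjusted p = 0.121), tRNA-Asp-GAY (1.22, edgeR adjusted p = 0.126), 7SK (0.52, edgeR adjusted p = 0.142) and tRNA-Glu-GAG_ (1.23, edgeR adjusted p = 0.152). On the lower side they were tRNA-Ser-TCA(m) (-0.33, edgeR adjusted p = 0.408), tRNA-Ala-GCG (-0.21, edgeR adjusted p = 0.672), HY1 (-0.24, edgeR adjusted p = 0.809) and tRNA-Gln-CAA_ (-0.04, edgeR adjusted p = 0.957). Of the 42 members, 37 had a log2 difference above 0. That count depends on the scale: with the aligned library size, where the median over all subfamilies was -0.22, it was 30. For vitC against control that scale gave a median of 0.12 over all subfamilies, and 40 of the 42 members were below 0.

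Whether vitC acted differently in the 2 culture sets was tested as an interaction. No member was called, and no subfamily was (0 of 902, 0%), while at an unadjusted p under 0.05 there were 11 above and 26 below 0, none of them a member. For the rRNA share, vitC minus control was -7.30 and -3.02 percentage points in pairs 1 and 2 and 2.61 and 1.64 points in pairs 3 and 4, which was not tested. As a share of the aligned library size the same differences were -6.15, -0.50, 0.42 and -0.75 points, so that pair 4 changed sign. The 7SK share was lower in all 4 pairs.

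In the hESC libraries every one of the 85 subfamilies of the same classes was listed at 0 counts, 0 uniquely mapped counts and 0 reads, in control and vitC alike. By name 81 of the 83 mouse members are also in the human table, all but BC1_Mm and 4.5SRNA. The human 7SLRNA subfamily, with 1625 annotated copies, was at 0, as were U6 with 1704, U2 with 1078, 7SK with 673 and LSU-rRNA_Hsa with 433 copies. Of the members with at least 100 copies, 19 of 19 were at 0 in both libraries, compared with 10 of 990 subfamilies of the other classes. The same libraries held 507528 and 549711 subfamily counts, of which Alu elements, whose sequence derives from 7SL, took 184717 and 201236. With all 85 at exactly 0, the table gives no measure of these RNAs in hESCs, and no fold between the species was computed. The human libraries also differ in their labels, as polyA RNA against total RNA, although the methods describe rRNA depletion for both alike. Whether the 0 values came from the RNA selection or from the counting was not tested. Of 23 small RNA genes looked up by symbol, 0 were in the mouse gene table used here and 6 in the human one. Among these 6, SNORD3A, a human U3 gene, was at 10.98 in control and 10.96 in vitC-treated hESCs, where the lowest value of the table was 10.82.

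The proteins that work with these RNAs were counted from 7 gene lists in the same mESC libraries, using limma on the deposited log2-like values of 14631 genes. Of 136 listed gene symbols, some of them older and newer names of the same gene, 129 were tested. None was called in the unpaired fit, where 0.342% of all genes were. With the replicate block 3 were called higher and 8 lower, against 6.36% and 4.44% of all genes tested. For the 7SK particle, 1 of 7 genes was called: Hexim1, which inhibits P-TEFb when bound to 7SK, was at 9.42 ± 0.04 in control and 9.28 ± 0.05 in vitC-treated cells (SD, n = 4 each). It was lower in 4 of 4 pairs, with a difference of -0.14 (limma adjusted p = 0.566 unpaired and 0.0388 with the block).

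For U3 and the box C/D particles, 2 of 20 genes were called lower with the block. They were Nop58, a core protein of box C/D particles (difference -0.15, limma adjusted p = 0.00846), and Mphosph10, a partner of U3 in the processome (-0.21, limma adjusted p = 0.00523). Of 30 spliceosomal snRNP proteins, 1 was called, Lsm3 of the U6 ring (-0.16, limma adjusted p = 0.0377). Of 10 signal recognition particle proteins, 0 were called, with Srp72 at 10.32 ± 0.03 and 10.34 ± 0.06 and Srpr, a subunit of its receptor, at 9.56 ± 0.06 and 9.45 ± 0.05 in control and vitC-treated cells (SD, n = 4 each). The differences were small, and all those named here had a limma adjusted p over 0.2 in the unpaired fit.

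Among 27 genes of RNA polymerase III, Polr3c was called higher (0.20, limma adjusted p = 0.00941) and Polr3k lower (-0.17, limma adjusted p = 0.0429), both subunits of the enzyme. Among 16 genes of RNA polymerase I, its largest subunit Polr1a was called higher (0.11, limma adjusted p = 0.0499) and the nucleolar protein Npm1 lower (-0.15, limma adjusted p = 0.00273). Of 19 genes of La, Ro and tRNA maturation, 3 were called: Ssb, the La protein that binds the 3′ end of polymerase III transcripts (-0.13, limma adjusted p = 0.0352), Pop1, a subunit of RNases P and MRP (-0.27, limma adjusted p = 0.00195), and the tRNA exporter Xpot (0.15, limma adjusted p = 0.0159). All these adjusted p-values are from the fit with the block. The lists as wholes lay close to the median of all genes (-0.00), with a median difference of -0.03 over the 129.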

How the data were processed

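RNA-seq of 8 mESC and 2 hESC libraries was analysed from the tables the authors deposited. According to the paper's methods the authors mapped reads to mm10 or hg38 and counted repeats with SQuIRE, whose version is not given in the sources used here. The submitters' processing notes name Trim Galore, HISAT2 and DESeq2. For each subfamily the authors deposited expected counts, in which reads with several places are shared by expectation-maximisation, and whole-number counts of uniquely mapped reads and of reads with any alignment. Gene tables were deposited as variance-stabilised values, close to a log2 scale. The deposited FPKM values of the hESC table and 2 other columns, 3 in all, were not used.

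Expected counts were rounded, filtered with filterByExpr and scaled by TMM. The test was edgeR 4.0.16 (glmQLFit and glmQLFTest, R 4.3.3) over all subfamilies, with Benjamini-Hochberg adjustment and a threshold of 0.05. Gene values above the lowest value of the table in at least 4 libraries were tested with limma 3.58.1. The log2 ratio of LSU to SSU counts, with a pseudocount of 0.5, was compared by an exact permutation test. Class shares were given without a test. On simulated data with known changes the edgeR and limma steps recovered most of the changed features. Those changes were larger than any fitted here for a tested member or a named gene. The simulated libraries held no pairs or culture sets. The recovery therefore does not show that changes as small as those fitted here for vitC would be called.

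The control and vitC libraries of a replicate number share the code in their labels. Correlations of the same-numbered deviations from group means were 0.230, 0.310, 0.300 and 0.557 over 902 subfamilies. Libraries of unlike number were not correlated, and the culture sets also differ, so these values cannot show the pairing. The pairs rest on the labels. The study's methods name no block, and the fit with the replicate block is an alternative. The labels do not say whether replicates were separate cultures, and p-values measure the spread between these samples. Reads carry no molecular identifiers.

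Members and gene lists were chosen with earlier results of these data known. Named members are the 2 with the highest mean count in each class, 7SK, U3 and BC1_Mm, those past the threshold with or without the block, and the 3 largest rises and falls with a mean of at least 50 counts and 1 direction in 4 of 4 pairs. For culture set they are the 5 with the smallest adjusted p on each side, and for genes those past the threshold in either fit, otherwise the 2 most expressed of a list. 5S, U5, U6, U17, SNORD3A and the members named under other settings were added after their values were seen. Alternatives were DESeq2 1.42.0, the aligned library size, scaling without rRNA, no filter, uniquely mapped counts, single culture sets, each library left out and, for genes, quantile normalization and other filters. Reads with any alignment, the ratio by culture set (given without a test), the culture set fit on summed pairs, and fits that join the block to another choice, were chosen after seeing the data.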

Additional observations from a re-analysis of the deposited data

Results flagged for a closer look

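The rRNA share of the subfamily counts moved in opposite directions in the culture sets. The vitC minus control difference was -7.30 and -3.02 percentage points in pairs 1 and 2, and 2.61 and 1.64 points in pairs 3 and 4. The split depends on the denominator: as a share of the aligned library size the differences were -6.15, -0.50, 0.42 and -0.75 points in pairs 1 to 4. For the share this difference between the sets was not tested, and for the rRNA subfamilies themselves the interaction was not called.

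Of 40 groups of 4 libraries that were examined, 4 held a library far from the other 3 (Dixon's test at 95%). In each of them it was vitC replicate 4, which was the highest of the vitC libraries, at 25250 CPM for U3, 14846 CPM for U1, 257 CPM for 4.5SRNA and 86.9 CPM for HY3. The control of the same pair, control replicate 4, held the highest CPM of 31 of the 42 tested members. The 40 groups come from the same 8 libraries, so the 4 flags are not independent and were not set against a chance rate.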

How the results depend on the processing

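Subfamilies called for vitC numbered 8, all higher. They were 20 with DESeq2, 0 on uniquely mapped counts, 21 in replicates 1 and 2 only and 3 (without control replicate 4 or vitC replicate 2) to 13 (without vitC replicate 3) on leaving out 1 library. With the replicate block they were 42, and under the block 4 on uniquely mapped counts, 47 without the rRNA rows, 68 on reads with any alignment, 74 with the aligned library size, and 28, 24, 44 and 18 without replicate 1, 2, 3 and 4. Of the members, 0 were called, against 2 with the block, and under the block 2 without the rRNA rows, 5 on reads with any alignment, 13 with the aligned library size, 3 without replicate 1 and 7 without replicate 3, every one of them lower with vitC. For the culture set 54 subfamilies were called, 137 with the aligned library size, 25 on uniquely mapped counts, 1 in the controls only, 25 in the vitC libraries only, 21 with the libraries of a pair summed and 32 to 49 on leaving out 1 library. Of the members 2 were called for culture set, 7 with the aligned library size, 0 without the rRNA rows (which removes both), 1 on uniquely mapped counts, 0 in the controls only, 0 with the libraries of a pair summed, 3 with DESeq2 and 1 to 6 (most without control replicate 3) on leaving out 1 library. The share of the 5 classes outside rRNA differed by -2.58 percentage points (vitC minus control) and by -6.43 points with the rRNA counts out of the denominator. The log2 ratio of LSU to SSU differed by -0.01 with vitC, by 0.27 on uniquely mapped counts, 0.42 in replicates 1 and 2 only and -0.83 to 1.05 on leaving out 1 library. By culture set it differed by 4.04, by 4.48 in the controls only and 3.61 in the vitC libraries only, and by 3.66 to 4.37 on leaving out 1 library. Genes called numbered 50, 1581 with the replicate block, 28 with genes above the lowest value in all libraries, and 19 (without control replicate 3) to 29 on leaving out 1 library. With all libraries kept, on TMM-scaled expected counts, the replicate block changed the call of no other member than 7SK and BC1_Mm. The cause of these changes was not tested. Of the 83 members 42 had enough counts to be tested.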
